A study of Mus musculus with 20 samples.

Results

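Cohesin is the protein ring that holds sister chromatids together and folds chromosomes into loops. Its RNA was examined here in 20 whole mouse embryonic hearts through 10 genes of 48795 in the table, namely the kleisins Rad21 and Rec8, the ring arms Smc1a and Smc3, the STAG subunits Stag1 and Stag2, the loader Nipbl and the release and regulatory factors Wapl, Pds5a and Pds5b. Rec8 was chosen by its lower value in Dp1Tyb hearts, so its values below are a description and carry no test. The other 9 genes were chosen by their role in the complex, with earlier results of these data known. All 10 had a mean normalized count of at least 10, the level above which genes were tested. The hearts were taken at E13.5, all on the C57BL/6J background. They comprised 10 WT hearts, 5 Dp1Tyb hearts and 5 hearts labelled Dp1TybDyrk1a+/+/-. Dp1Tyb mice carry a duplication of a stretch of chromosome 16 and thus 3 copies of its genes, Dyrk1a among them, as a model of Down syndrome. Dp1TybDyrk1a+/+/- mice carry the same duplication together with the null allele Dyrk1atm1Mla on that chromosome, brought there by a crossover and kept as a strain of its own, which leaves 2 working copies of the kinase gene Dyrk1a. The study took WT controls from the litters of each mutant strain, so the WT group pools controls of both, and the labels do not say which WT heart belongs to which strain. Both mutants are constitutive, so every cell of the heart carries them. None of the 10 cohesin genes lies on chromosome 16.

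Smc1, Smc3 and a kleisin close into a ring, and a STAG protein and a Pds5 protein sit on the kleisin. Nipbl, with its partner Mau2, loads the ring onto DNA and drives loop extrusion, while Wapl with Pds5 opens it again. In dividing somatic cells the kleisin is Rad21. In meiosis it is largely replaced by Rec8, which protects the cohesion of sister centromeres through the first division, so that Rec8 is known above all from germ cells. Mutations of the loader and of the ring subunits in people cause Cornelia de Lange syndrome, of which heart defects can be a part.

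The promoters are shown first, because several of the members moved together and Rec8 stood far below them in level. RefSeq promoter windows of 300 bases on GRCm38.p6 were on hand for 7 of the 10 genes, and Rad21, Stag2 and Nipbl had no entry. The letters upstream of the annotated gene start are given 5′ to 3′ on the strand of the gene for Rec8 (chr14:55617916-55618001, plus strand), Smc1a (chrX:152016178-152016427, plus strand), Smc3 (chr19:53600146-53600395, plus strand) and Pds5a (chr5:65698237-65698486, minus strand). Capitals mark matches on either strand to CCAAT, the letters of a CCAAT box, or to TTTGGCGC or TTTCGCGC, letters bound by E2F factors. The third motif searched, TTTGAA, is the letters of the cell cycle homology region (CHR) and has no match in these 4 stretches.
Rec8: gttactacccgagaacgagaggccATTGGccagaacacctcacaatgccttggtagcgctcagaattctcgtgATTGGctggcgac
Smc1a: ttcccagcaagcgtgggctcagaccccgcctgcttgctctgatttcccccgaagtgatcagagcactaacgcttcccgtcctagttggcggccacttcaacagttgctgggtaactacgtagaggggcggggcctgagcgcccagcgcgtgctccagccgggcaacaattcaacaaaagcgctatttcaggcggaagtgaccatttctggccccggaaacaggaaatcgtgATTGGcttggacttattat
Smc3: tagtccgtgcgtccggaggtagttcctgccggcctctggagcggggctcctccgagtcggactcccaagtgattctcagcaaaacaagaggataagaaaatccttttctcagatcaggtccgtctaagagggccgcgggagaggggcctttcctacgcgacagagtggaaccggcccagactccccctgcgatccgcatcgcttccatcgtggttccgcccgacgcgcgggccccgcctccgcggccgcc
Pds5a: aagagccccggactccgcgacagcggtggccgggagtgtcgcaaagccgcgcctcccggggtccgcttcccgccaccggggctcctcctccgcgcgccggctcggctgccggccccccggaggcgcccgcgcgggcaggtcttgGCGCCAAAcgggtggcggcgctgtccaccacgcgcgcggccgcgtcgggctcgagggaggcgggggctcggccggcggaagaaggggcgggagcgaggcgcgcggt
Within 86 bases Rec8 had 2 CCAAT matches, both reading ATTGG on its own strand, and its whole window had 3. Over the 300-base windows, CCAAT occurred in 5 of the 7 members (Rec8, Smc1a, Stag1, Wapl and Pds5b) and in 37.4% of all 32851 windows. The E2F letters occurred in 1 of 7, Pds5a, and in 0.8% of all windows. The CHR letters occurred in 1 of 7, Pds5b, and in 17.9%. No motif contains another. Such matches describe the windows and are no evidence of binding.

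Values are log2 normalized counts as deposited, so a difference of 1 is a 2-fold change on that scale. Folds are those of the deposited values and may understate the ratios of counts. Read totals were not analysed here, and the depth of each heart is therefore unknown. Tests are limma's, fitted over 15304 genes with 1 mean per genotype, and a gene was called at an adjusted p under 0.05. Dyrk1a, the gene that sets the mutants apart, had values from 11.28 to 11.43 in WT hearts, from 11.65 to 11.75 in Dp1Tyb hearts and from 11.70 to 11.85 in the third group. It was 1.25-fold higher in Dp1Tyb than in WT hearts (adjusted p = 6.22e-08) and 1.31-fold higher in Dp1TybDyrk1a+/+/- hearts (adjusted p = 2.18e-09). Both folds were below the ratio of 3 to 2 gene copies, and whether the deposited scale shrinks differences at this level was not tested. The counts cover the whole gene, including RNA of the null allele, so they check the duplication but not the null allele. Myh7 and Actc1, contractile genes of cardiomyocytes, had median values of 17.06 and 16.87 in WT hearts, as the label heart requires. Over all genes, 2 hearts stood apart from their groups: WT heart 6 and Dp1TybDyrk1a+/+/- heart 2 had mean squared deviations from their genotype mean of 0.0179 and 0.0346, against 0.00278 to 0.00826 in the other 18. Results that rest on them are also given without them. Libraries ran in lanes 3, 6 and 7, and each lane held hearts of every genotype. Xist, the RNA of the inactive X chromosome, stood above the Y-linked gene Ddx3y in 3 of 10 WT hearts, in 4 of 5 Dp1Tyb hearts (all but heart 4) and in 1 of 5 Dp1TybDyrk1a+/+/- hearts, so that female embryos were unevenly spread over the genotypes. Values are therefore also given within each sex, and with sex as a covariate.

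Rec8 (ENSMUSG00000002324, chromosome 14, 55855455 to 55862852 on GRCm39, plus strand) was lower in Dp1Tyb hearts than in every WT heart. In WT hearts its value ran from 7.93 over a median of 8.06 to 8.13. The 5 Dp1Tyb hearts had values of 7.90, 7.83, 7.83, 7.77 and 7.73, so that the highest of them lay below the lowest WT heart. In hearts labelled Dp1TybDyrk1a+/+/- the values were 8.02, 7.80, 8.08, 8.13 and 8.07, and 4 of the 5 lay within the WT range. The exception was heart 2, one of the pair that stood apart, which fell among the Dp1Tyb hearts. WT hearts averaged 8.05 ± 0.0659 (SD, n = 10). The mean of the Dp1Tyb hearts was 7.81 ± 0.0656 (SD, n = 5), and that of the Dp1TybDyrk1a+/+/- hearts 8.02 ± 0.129 (SD, n = 5).

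The Rec8 difference between Dp1Tyb and WT hearts, on which the gene was selected, was -0.23 on the log2 scale (SE 0.0446), or 0.851-fold. It was -0.21 (SE 0.0515) between Dp1Tyb and Dp1TybDyrk1a+/+/- hearts and -0.028 (SE 0.0446) between Dp1TybDyrk1a+/+/- and WT hearts. The 3 differences share hearts, those of the choosing comparison included, so none was tested for Rec8. Without both hearts that stood apart, the differences were -0.24, -0.26 and 0.023 in that order. Within lanes 3, 6 and 7 the difference between Dp1Tyb and WT hearts was -0.31, -0.22 and -0.11. It was below 0 in each lane, as it had to be where every Dp1Tyb heart lay below every WT heart. Lane 7 rests on 1 Dp1Tyb and 2 WT hearts. Among female hearts the Dp1Tyb mean of 7.82 (n = 4) lay below the WT mean of 8.09 (n = 3), and the single male Dp1Tyb heart, at 7.77, lay below the WT mean of 8.03 (n = 7). The difference was thus -0.27 among female and -0.26 among male hearts. Splits by lane and sex reuse the hearts by which Rec8 was chosen, so they describe its values and give no separate support.

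**Figure D1:**
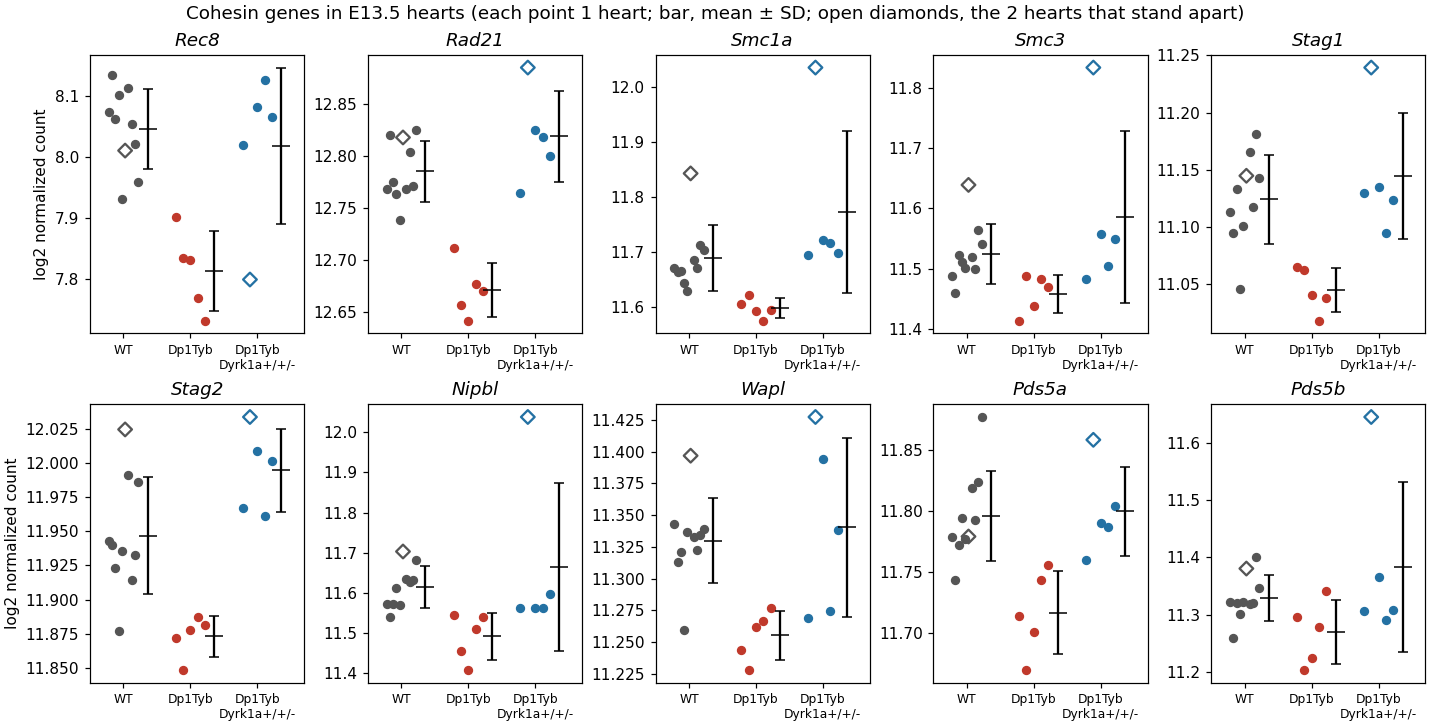
Log2 normalized counts (vertical axes, a separate scale in each panel, not starting at 0) of the 10 cohesin genes in each heart, by genotype (WT, n = 10; Dp1Tyb, n = 5; Dp1TybDyrk1a+/+/-, n = 5), with the mean and SD as bars and open diamonds for WT heart 6 and Dp1TybDyrk1a+/+/- heart 2. All 5 Dp1Tyb hearts lie below all WT hearts for Rec8, Rad21 and Smc1a, and Dp1TybDyrk1a+/+/- heart 2 is the lowest of its group for Rec8 and the highest for the other genes.

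Rad21 (ENSMUSG00000022314, chromosome 15, 51825636 to 51855179, minus strand), the somatic kleisin, fell in Dp1Tyb hearts and was the only one of the 9 members other than Rec8 called against WT. WT hearts ranged from 12.74 to 12.82 with a median of 12.77. The Dp1Tyb hearts had values of 12.71, 12.66, 12.64, 12.68 and 12.67, all below every WT heart. The Dp1TybDyrk1a+/+/- hearts had values of 12.76, 12.89, 12.83, 12.82 and 12.80, all above every Dp1Tyb heart. Rad21 was 0.924-fold in Dp1Tyb relative to WT hearts (log2 difference -0.11, SE 0.0223, adjusted p = 0.00516), lower in 5 of 5 hearts. Relative to Dp1TybDyrk1a+/+/- hearts it was 0.903-fold (log2 difference -0.15, SE 0.0257, adjusted p = 0.0101). Between Dp1TybDyrk1a+/+/- and WT hearts the difference was 0.034 (SE 0.0223, adjusted p = 0.643). The call against WT held with each heart left out in turn, with adjusted p from 0.000955 to 0.0272 over 20 fits. Against Dp1TybDyrk1a+/+/- hearts it also held in all 20 such fits (0.00645 to 0.0359), but not when only these 2 genotypes were fitted (adjusted p = 0.132). Within lanes 3, 6 and 7 the Rad21 difference between Dp1Tyb and WT hearts was -0.12, -0.12 and -0.10. Among female hearts it was -0.12 and among male hearts -0.11. Every Dp1Tyb heart lay below every WT heart, so the sign was fixed in each of these splits, which give no separate support. With sex as a covariate the difference from WT was -0.11 and stayed called (adjusted p = 0.0329), while that from Dp1TybDyrk1a+/+/- hearts, -0.14, did not (adjusted p = 0.0734).

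Per kilobase of the canonical transcript, Rad21 was the highest of the 10 genes and Rec8 the lowest. In WT hearts the log2 value per kilobase was 10.80 ± 0.0292 for Rad21 and 6.89 ± 0.0659 for Rec8 (SD, n = 10), a level higher by 3.91 on the log2 scale for the somatic than for the meiotic kleisin. Below Rad21 the order was Smc1a (9.46), Smc3 (9.25), Pds5b (9.13), Stag2 (8.90), Pds5a (8.61), Wapl (8.57), Stag1 (8.50), Nipbl (8.26) and Rec8. Neighbours in this order whose WT hearts overlapped were Smc3 and Pds5b, Pds5a and Wapl, and Wapl and Stag1. The order depends on the transcript taken as canonical, and each gene has several.

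The ring arms Smc1a and Smc3, ATPases that pair at their hinge, had lower means in Dp1Tyb hearts, and neither difference passed the test. Smc1a (ENSMUSG00000041133, chromosome X, 150799424 to 150846390, plus strand) ran from 11.63 over a median of 11.67 to 11.84 in WT hearts. Its Dp1Tyb values were 11.61, 11.62, 11.59, 11.57 and 11.59, below every WT heart. In Dp1TybDyrk1a+/+/- hearts they were 11.69, 12.04, 11.72, 11.72 and 11.70, and heart 2 was far above the rest. The difference was -0.091 (SE 0.0437, adjusted p = 0.322) from WT and -0.18 (SE 0.0505, adjusted p = 0.0836) from Dp1TybDyrk1a+/+/- hearts. Without WT heart 6 and Dp1TybDyrk1a+/+/- heart 2 the difference from WT was smaller, -0.074, and passed the test (adjusted p = 0.00559), as did that from Dp1TybDyrk1a+/+/- hearts, -0.11 (adjusted p = 0.00362). Smc1a shares 456 bases with Ribc1 on the other strand, and how strand was used in counting is not given in the sources used here.

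Smc3 (ENSMUSG00000024974, chromosome 19, 53588818 to 53634295, plus strand) ranged from 11.46 to 11.64 in WT hearts, with a median of 11.52. The Dp1Tyb values of 11.41, 11.49, 11.44, 11.48 and 11.47 overlapped them. Those of the Dp1TybDyrk1a+/+/- hearts were 11.48, 11.83, 11.56, 11.50 and 11.55, again with heart 2 on top. Its differences of -0.066 (SE 0.0414) from WT and -0.13 (SE 0.0479) from Dp1TybDyrk1a+/+/- hearts had adjusted p of 0.489 and 0.164. Without the pair of hearts that stood apart they were -0.053 and -0.066.

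Of the STAG subunits, which give the ring its contacts with CTCF and with DNA, Stag2 was called between the mutants, and neither was called against WT. Stag2 (ENSMUSG00000025862, chromosome X, 41238146 to 41368132, plus strand) had Dp1Tyb values of 11.87, 11.85, 11.88, 11.89 and 11.88. They lay below all Dp1TybDyrk1a+/+/- hearts, with 11.97, 12.03, 12.01, 11.96 and 12.001, and overlapped the WT hearts, which ran from 11.88 over 11.94 to 12.02. Stag2 fell relative to Dp1TybDyrk1a+/+/- hearts to 0.920-fold (log2 difference -0.12, SE 0.0258, adjusted p = 0.0299). That call was lost without any 1 of the 5 Dp1Tyb hearts (adjusted p 0.0512 to 0.0750) or without Dp1TybDyrk1a+/+/- heart 3 (0.0663) or heart 5 (0.0519), with lane as a covariate (0.0784), after quantile normalization (0.104), with only these genotypes fitted (0.132) and with sex as a covariate (0.122). Stag2 and Smc1a are X-linked, and their means in female and male WT hearts were close, 11.95 and 11.94 for Stag2 and 11.69 in both for Smc1a. From WT it differed by -0.073 (SE 0.0223, adjusted p = 0.0838).

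Stag1 (ENSMUSG00000037286, chromosome 9, 100479740 to 100841428, plus strand) lay between 11.05 and 11.18 in WT hearts, with a median of 11.13. Its Dp1Tyb values were 11.07, 11.06, 11.04, 11.02 and 11.04. In Dp1TybDyrk1a+/+/- hearts they were 11.13, 11.24, 11.14, 11.10 and 11.12. The Dp1Tyb hearts overlapped the WT but not the Dp1TybDyrk1a+/+/- hearts. Neither the difference from WT, -0.079 (SE 0.0238, adjusted p = 0.0803), nor that from Dp1TybDyrk1a+/+/- hearts, -0.10 (SE 0.0275, adjusted p = 0.0740), passed the test.

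Nipbl (ENSMUSG00000022141, chromosome 15, 8319309 to 8473990, minus strand), the loader, had the largest mean difference from WT of the 9 genes, and also the widest error. WT hearts ran from 11.54 over 11.62 to 11.70. The Dp1Tyb values were 11.55, 11.46, 11.41, 11.51 and 11.54, of which 4 lay below every WT heart. The Dp1TybDyrk1a+/+/- values were 11.56, 12.04, 11.56, 11.56 and 11.60, and heart 2 alone put the mean of that group above WT. Nipbl differed by -0.12 from WT (SE 0.0571, adjusted p = 0.303) and by -0.17 from Dp1TybDyrk1a+/+/- hearts (SE 0.0660, adjusted p = 0.169). Without the pair that stood apart the difference from WT was -0.11 and passed (adjusted p = 0.00732), and that from Dp1TybDyrk1a+/+/- hearts shrank to -0.079.

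The release and regulatory factors Wapl, Pds5a and Pds5b had Dp1Tyb means below both other groups, and none of them passed the test. Wapl (ENSMUSG00000041408, chromosome 14, 34395458 to 34469941, plus strand) had Dp1Tyb values of 11.24, 11.23, 11.26, 11.27 and 11.28 against 11.26 to 11.40 in WT hearts, with a median of 11.33. Dp1TybDyrk1a+/+/- hearts had 11.27, 11.43, 11.39, 11.27 and 11.34, which overlapped both. It differed by -0.074 from WT (SE 0.0252, adjusted p = 0.128) and by -0.085 from Dp1TybDyrk1a+/+/- hearts (SE 0.0291, adjusted p = 0.130).

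Pds5a (ENSMUSG00000029202, chromosome 5, 65763053 to 65864080, minus strand) had Dp1Tyb values of 11.71, 11.67, 11.70, 11.74 and 11.76 against 11.74 to 11.88 in WT hearts, with a median of 11.79. In Dp1TybDyrk1a+/+/- hearts it had 11.76, 11.86, 11.79, 11.79 and 11.80, all above every Dp1Tyb heart. Its difference was -0.079 from WT (SE 0.0226, adjusted p = 0.0620) and -0.083 from Dp1TybDyrk1a+/+/- hearts (SE 0.0261, adjusted p = 0.106). Pds5b (ENSMUSG00000034021, chromosome 5, 150597204 to 150734177, plus strand) had Dp1Tyb values of 11.30, 11.20, 11.22, 11.28 and 11.34, WT values from 11.26 over 11.32 to 11.40 and Dp1TybDyrk1a+/+/- values of 11.31, 11.64, 11.37, 11.29 and 11.31. It overlapped between all groups, and its difference of -0.060 from WT (SE 0.0428, adjusted p = 0.555) was the smallest of the 9.

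Read as a group, all 9 members other than Rec8 had lower means in Dp1Tyb hearts than in WT, with a median difference of -0.079, against -0.0019 over all genes tested, of which 51.5% were below 0. Of the 9, 1 was called lower and 0 higher. Over all genes 3.08% were called in this comparison, and 1.27% were called lower. Hearts did not overlap for 2 of the 9, Rad21 and Smc1a, against 1.12% of all genes on the lower side. Between Dp1Tyb and Dp1TybDyrk1a+/+/- hearts all 9 were again below 0, with a median of -0.12 against 0.0028 over all genes. Without Dp1TybDyrk1a+/+/- heart 2 all 9 stayed below 0, and their median was -0.076 against 0.0001 over all genes. In the fit of 20 hearts 2 of 9 were called, Rad21 and Stag2, both lower. Over all genes 1.16% were called and 0.738% were called lower. Hearts did not overlap for 6 of the 9, against 3.55% of all genes. The 2 comparisons share the Dp1Tyb hearts, so the second is no separate evidence of the first.

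Between Dp1TybDyrk1a+/+/- and WT hearts 0 of the 9 were called by limma, while 0.712% of all genes were called. Of the 9, 1 had an unadjusted limma p under 0.05, against 1475 of all 15304 genes. All 9 means were above 0, with a median of 0.048. Without both hearts that stood apart, 5 of the 9 were below 0 and the median was -0.0008. Within lanes, all 9 were below 0 in each of the 3 lanes in Dp1Tyb relative to WT and relative to Dp1TybDyrk1a+/+/- hearts. They were likewise all below 0 within female and within male hearts in both comparisons, although the male side holds 1 Dp1Tyb heart and the female side 1 Dp1TybDyrk1a+/+/- heart. Hearts did not overlap for 2 of the 9 in the first comparison and 6 of the 9 in the second. For these genes the sign in every split was fixed in advance. The splits reuse the same hearts and give no separate support. With sex as a covariate, 1 of 9, Rad21, was called against WT, where 0.438% of all genes were called lower, and limma called 0 of 9 relative to Dp1TybDyrk1a+/+/- hearts, where 0.0457% were. At an unadjusted p under 0.05 there were then 5 and 6 of the 9, against 11.5% and 10.8% of all genes.

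**Figure D2:**
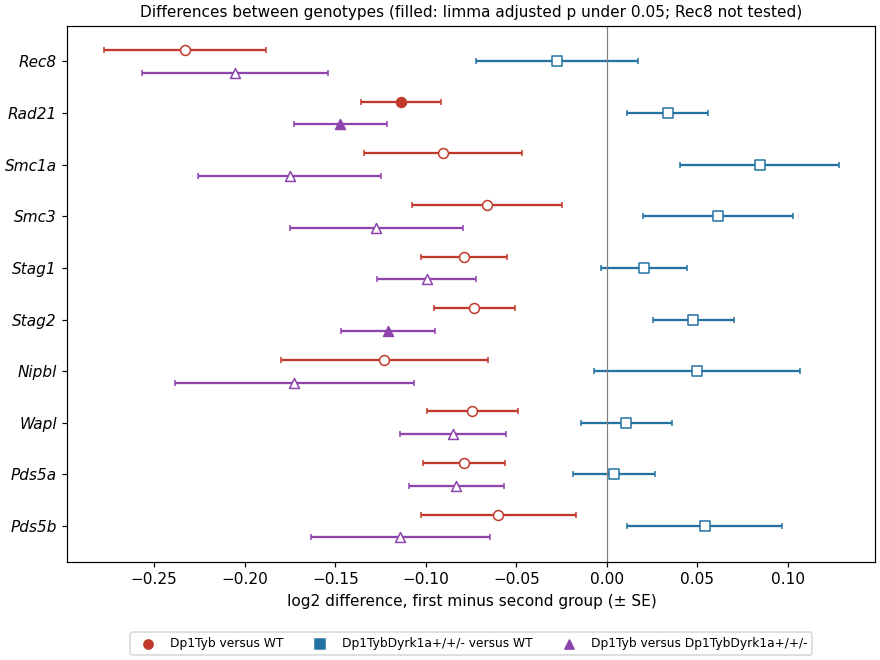
Log2 differences (horizontal axis, first minus second genotype) of the 10 cohesin genes (rows) with their limma standard errors as bars, for the 3 comparisons, filled where the adjusted p was under 0.05. The 9 genes below Rec8 lie left of 0 in both comparisons of Dp1Tyb hearts, and only Rad21 (-0.11 and -0.15) and Stag2 (-0.12) are filled.

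How many of the 9 were called depended on Dp1TybDyrk1a+/+/- heart 2, which is not among the hearts of the comparison between Dp1Tyb and WT but enters the spread that limma estimates over all groups. Without it, 7 of the 9 were called lower in Dp1Tyb than in WT hearts, all but Smc3 and Pds5b, where 2.95% of all genes were called lower. Leaving out WT heart 4 gave 3 calls and leaving out WT heart 2 gave 2, where 1.07% and 1.08% of all genes were called lower, and without any other single heart the count was 1. Without both hearts that stood apart it was again 7 of 9, where 3.73% of all genes were called lower. Relative to Dp1TybDyrk1a+/+/- hearts it was then 3 of 9, Rad21, Smc1a and Stag2, where 2.60% of all genes were called lower. Between the fits of 20 and 18 hearts the difference from WT went from -0.12 to -0.11 for Nipbl and from -0.091 to -0.074 for Smc1a.

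The 9 genes had r above 0 with each other over all hearts. Over the 20 hearts Pearson's r ran from 0.60 to 0.95 in their 36 pairs, with a median of 0.76. After each genotype's mean was subtracted it ran from 0.39 to 0.93, with a median of 0.64. Without both hearts that stood apart the median after subtraction was 0.36, and 1 of the 36 pairs was below 0. Rec8 followed them less closely over the 20 hearts, where its r with each of the 9 ran from -0.14 to 0.57 with a median of 0.22. Without the pair that stood apart it ran from 0.28 to 0.86, with a median of 0.55, against 0.68 in the pairs of the 9. After subtraction its r with each of the 9 ran from -0.77 to -0.24, and without that pair from -0.44 to 0.31, with 7 of 9 below 0. The points share library preparation and normalization, and the correlations are given as a description.

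Dp1TybDyrk1a+/+/- heart 2 had the lowest Rec8 value of its group and the highest value for each of the other 9. Its genes with canonical transcripts over 7000 bases deviated from the genotype mean by a median of 0.10, against -0.032 for those under 2000 bases. Among the members Nipbl (10258 bases), Pds5a (9108) and Stag2 (8241) have such long transcripts, and Rec8 with 2223 bases has the shortest. Over all genes with transcripts over 7000 bases the median difference was -0.021 between Dp1Tyb and WT hearts and -0.027 between Dp1Tyb and Dp1TybDyrk1a+/+/- hearts, smaller than the medians of -0.079 and -0.12 over the 9 members. Without heart 2 the median difference between the mutants was -0.0054 over the long transcripts and -0.076 over the members. The part of transcript length in the members' differences was not tested.

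The rest of the cohesin pathway moved in part. Of 13 further genes 11 passed the level filter, and 3 of these were called lower and 0 higher in Dp1Tyb than in WT hearts, where 1.27% of all genes were called lower. Esco2, the acetyltransferase that locks cohesion during replication, fell to 0.903-fold (log2 difference -0.15, SE 0.0307, adjusted p = 0.00902). Sgo1, the shugoshin that guards centromeric cohesion in mitosis, fell to 0.926-fold (adjusted p = 0.0254), with all 5 Dp1Tyb hearts below every WT heart. Ctcf, the DNA-binding protein at which cohesin halts, fell to 0.956-fold (adjusted p = 0.0368). Relative to Dp1TybDyrk1a+/+/- hearts, 2 of 11 were called lower, Esco2 at 0.863-fold (adjusted p = 0.00786) and Sgo2a, the second shugoshin, at 0.887-fold (adjusted p = 0.0460). In that comparison 0.738% of all genes were called lower. Between Dp1TybDyrk1a+/+/- and WT hearts limma called 0 of 11, with 2 at an unadjusted p under 0.05, against 1475 of all 15304 genes.

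The other members of that list stayed short of the threshold in every comparison. Mau2, the partner of Nipbl, differed by -0.0014 between Dp1Tyb and WT hearts (SE 0.0494, adjusted p = 0.994). The acetyltransferase Esco1 differed by 0.016, the deacetylase Hdac8 by 0.048, the cohesion protector Cdca5 (sororin) by -0.030, the separase Espl1 by -0.019 and its inhibitor Pttg1 (securin) by 0.030, with adjusted p from 0.482 to 0.915. Esco2 stayed called against WT without each heart in turn, Sgo1 in 18 and Ctcf in 10 of these 20 fits. Without Dp1Tyb heart 1 or heart 3 it was the only call of the 11, and the call of Sgo2a relative to Dp1TybDyrk1a+/+/- hearts was lost without 15 of the 20 hearts singly. With sex as a covariate Esco2 alone of the 11 was called against WT (adjusted p = 0.0459), where 0.438% of all genes were called lower. Limma then called 0 of the 11 relative to Dp1TybDyrk1a+/+/- hearts, where 0.0457% of all genes were called lower. There 4 had an unadjusted p under 0.05, against 10.8% of all genes, and Esco2 had an adjusted p of 0.0611.

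Of the 3 other meiotic cohesin subunits, 1 passed the level at which genes were tested. Stag3, the STAG subunit of meiotic cohesin, ran from 5.89 to 6.11 in WT, from 5.88 to 6.003 in Dp1Tyb and from 5.93 to 6.10 in Dp1TybDyrk1a+/+/- hearts, and its difference from WT in Dp1Tyb hearts was -0.063 (SE 0.0365, adjusted p = 0.441). Smc1b, a meiotic ring arm, had a WT mean of 2.32 and Rad21l, a further meiotic kleisin, of -1.02, both below that level. Of 26 further meiosis genes 9 passed that level, and 1, Meioc, a regulator of the meiotic programme, was called, at 0.922-fold in Dp1Tyb relative to WT hearts (adjusted p = 0.0456), where 1.27% of all genes were called lower. The call was lost with sex as a covariate (adjusted p = 0.261). The highest of the list, the mismatch repair gene Mlh3 and the synaptonemal complex gene Syce2, had WT medians of 8.82 and 7.33 and were not called. Of 8 germ cell markers 2 passed the level, Tdrd1 (WT median 5.61) and Ddx4 (4.94), and neither was called. Sohlh1 was at 0 in every heart. Values of the 8 markers were also taken back from the log2 scale and summed, a sum in which the strongest genes weigh most. The log2 of this sum ran from 6.48 to 6.56 in WT, from 6.44 to 6.55 in Dp1Tyb and from 6.42 to 6.62 in Dp1TybDyrk1a+/+/- hearts, so the groups overlapped in it. The part of germ cells in the Rec8 values was not tested.

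The sister complexes built on SMC proteins were set beside cohesin. Condensin, which compacts mitotic chromosomes, had 5 of 8 genes called lower in Dp1Tyb than in WT hearts, where 1.27% of all genes were called lower. All 8 condensin genes were below 0, with a median of -0.091. Its core subunits Smc4 and Smc2 were at 0.899-fold (adjusted p = 0.00564) and 0.939-fold (adjusted p = 0.0467), and Ncapg, Ncapd2 and Ncapd3 were also called, with adjusted p of 0.0307, 0.0439 and 0.0473. Relative to Dp1TybDyrk1a+/+/- hearts 3 of 8 were called, where 0.738% of all genes were called lower. They were Smc4 at 0.868-fold (adjusted p = 0.00913), Smc2 at 0.919-fold (adjusted p = 0.0426) and Ncapg at 0.925-fold (adjusted p = 0.0460). Without single hearts the number called ran from 1, for instance without Dp1Tyb heart 3, to 6, without Dp1TybDyrk1a+/+/- heart 2, in the first comparison and from 1 to 5 in the second. Over all 15304 genes 266 to 959 and 30 to 404 were called in these fits. With sex as a covariate Smc4 and Ncapd2 were called against WT, where 0.438% of all genes were called lower. Limma then called 0 of 8 relative to Dp1TybDyrk1a+/+/- hearts, where 0.0457% of all genes were called lower. There 6 had an unadjusted p under 0.05, against 10.8% of all genes, and Smc4 had an adjusted p of 0.0734. Of the SMC5/6 complex, which serves DNA repair, limma called 0 of 6 in either comparison, with 4 and 5 at an unadjusted p under 0.05. Over all 15304 genes these counts were 2382 and 2838. Its core genes Smc6 and Smc5 differed from WT by -0.12 (adjusted p = 0.108) and -0.082 (adjusted p = 0.0776).

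Proliferation genes were called lower in part. Of 11, all had means below 0 in Dp1Tyb relative to WT hearts, with a median of -0.087, and 4 were called lower: Ccna2 (0.897-fold), Top2a (0.906-fold), Bub1 (0.924-fold) and Pcna (0.938-fold), with adjusted p of 0.00577, 0.0121, 0.00207 and 0.0355. Relative to Dp1TybDyrk1a+/+/- hearts Ccna2, Bub1, Pcna and Birc5 were called lower. Of all genes, 1.27% and 0.738% were called lower in these 2 comparisons. Without single hearts the counts ran from 2 to 6 and from 1 to 5 of 11, where 266 to 959 and 30 to 404 of all 15304 genes were called. With sex as a covariate Ccna2, Top2a and Bub1 were called against WT, and Bub1 alone relative to Dp1TybDyrk1a+/+/- hearts. Of all genes, 0.438% and 0.0457% were then called lower. Mki67, with Top2a the highest of the list, differed by -0.21 from WT (SE 0.0865, adjusted p = 0.232). The log2 of the summed normalized counts of the list, in which the strongest genes weigh most, was 15.15 to 15.28 in WT, 15.01 to 15.10 in Dp1Tyb and 15.16 to 15.35 in Dp1TybDyrk1a+/+/- hearts. The part of proliferation in the cohesin differences was not tested, and in whole hearts fewer cells of a type and less RNA per cell cannot be told apart. Limma called 0 genes in each of the marker lists of cardiomyocytes, endothelium, cushion and fibroblasts, epicardium, smooth muscle, macrophages and erythroid cells, 34 genes in all, in any of the 3 comparisons, with 6, 3 and 3 at an unadjusted p under 0.05. Over all 15304 genes 3.08%, 0.712% and 1.16% were called, and 2382, 1475 and 2838 had such an unadjusted p. All 5 genes of the cushion and fibroblast list (Col1a1, Col3a1, Postn, Pdgfra and Sox9) had higher Dp1Tyb means than both other groups, with medians of 0.097 from WT and 0.087 from Dp1TybDyrk1a+/+/- hearts. The log2 of their summed normalized counts was 16.21 to 16.70 in WT, 16.54 to 16.74 in Dp1Tyb and 16.27 to 16.74 in Dp1TybDyrk1a+/+/- hearts, so the groups overlapped in this sum. Of the 6 cardiomyocyte genes 4 were below 0 relative to WT and 5 relative to Dp1TybDyrk1a+/+/- hearts, with medians of -0.072 and -0.096. The log2 of their summed normalized counts, 18.45 to 18.89 in WT, 18.44 to 18.67 in Dp1Tyb and 18.54 to 18.76 in Dp1TybDyrk1a+/+/- hearts, overlapped too. Of the 4 epicardial markers, 3 had lower means in Dp1Tyb than in Dp1TybDyrk1a+/+/- hearts. The exception, Tcf21, was higher in all 5 Dp1Tyb than in every Dp1TybDyrk1a+/+/- heart, by 0.17 (SE 0.0544, adjusted p = 0.104). Of all 15304 genes, 321 were likewise higher without overlap. No marker of these lists was at 0 in every heart, and the part of cell composition in the cohesin differences was not tested.

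**Figure D3:**
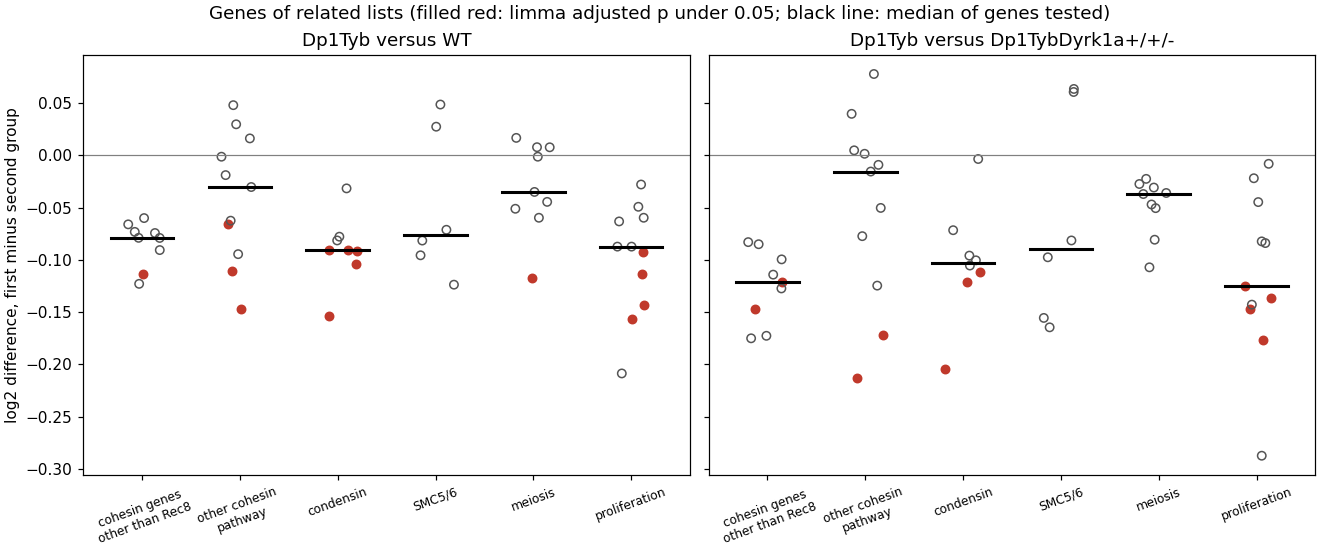
Log2 differences (vertical axis, first minus second genotype) of the tested genes of 6 lists (horizontal axis), in Dp1Tyb against WT hearts (left) and against Dp1TybDyrk1a+/+/- hearts (right), with filled red points where the limma adjusted p was under 0.05 and black lines at list medians. Medians of the 9 cohesin genes (-0.079 and -0.12) lie near those of condensin (-0.091 and -0.10) and proliferation (-0.087 and -0.13), while the other cohesin pathway genes centre nearer to 0 (-0.030 and -0.016). Without Dp1TybDyrk1a+/+/- heart 2 the right-hand medians are -0.076 for the cohesin genes, -0.10 for condensin and -0.12 for proliferation.

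The 3 genes on each side of Rec8 were taken by position, and Rec8 by its fall, so a contrast was favoured in advance. Why Rec8 and its neighbours differed was not tested. On chromosome 14 the tail of Ipo4, an importin gene on the opposite strand, ends 4 bases from that of Rec8, and how strand was used in counting is not given in the sources used here. Ipo4 had a WT mean of 10.34 and differed by 0.037 in Dp1Tyb hearts (SE 0.0258, adjusted p = 0.547), so that it was not lower where Rec8 was. Irf9, a transcription factor of interferon signalling 7642 bases upstream of Rec8, had a higher Dp1Tyb mean (log2 difference 0.20, SE 0.0583, adjusted p = 0.0762) that was short of the threshold. Rnf31 and Psme2 beyond it differed by 0.076 each (adjusted p = 0.143 and 0.600), and on the far side Tm9sf1 differed by 0.065 (adjusted p = 0.387) and Tssk4, near the floor with a WT mean of 3.37, by -0.017 (adjusted p = 0.624).

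**Figure D4:**
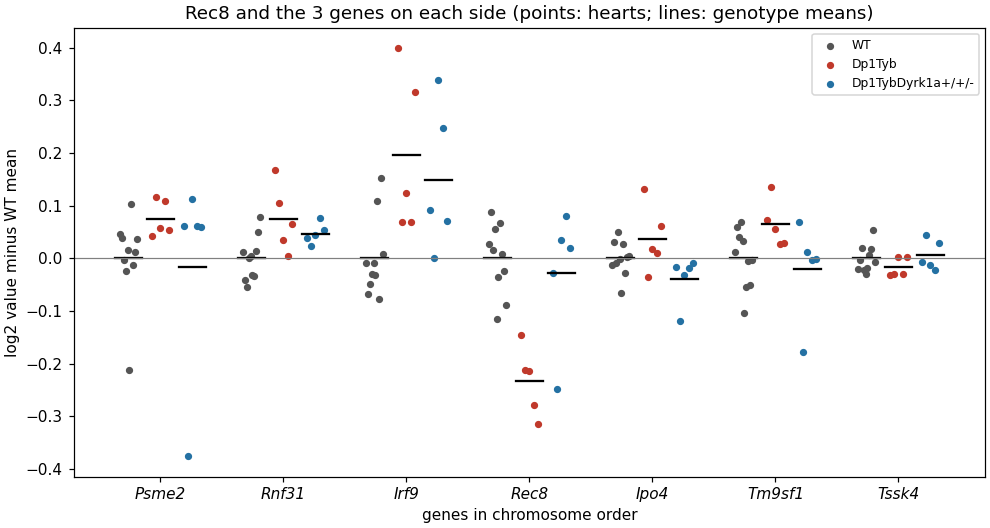
Log2 value of each heart minus the WT mean of the gene (vertical axis) for Rec8 and the 3 genes of the table on each side of it in chromosome order (horizontal axis, not to scale), with points for hearts coloured by genotype and black lines for genotype means. Of the 7 genes only Rec8, which was chosen by its lower value in Dp1Tyb hearts, has all 5 Dp1Tyb hearts below all WT hearts. Irf9 has the highest Dp1Tyb mean (0.20).

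Genes whose values followed Rec8 most closely over the 20 hearts were Stmn1, a microtubule regulator of dividing and migrating cells (Pearson's r 0.835), Klhl24 (0.818), Smim36 (0.812), Ddc, the decarboxylase of dopamine synthesis (0.802), and Ak6 (0.788). Without the 2 hearts that stood apart these r were 0.836, 0.825, 0.792, 0.775 and 0.801. All 5 share with Rec8 the lower Dp1Tyb mean, from 0.819-fold for Ddc to 0.949-fold for Ak6. Rec8 was chosen by that fall and r over all hearts takes it in, so the ranking favours genes that share it. After subtraction of the genotype means the closest 5 were Parp10 (0.863), Relt (0.848), Zkscan17 (0.848), Bckdha (0.846) and Actr8 (0.841), a different set, with r from 0.646 to 0.771 without those 2 hearts. None of the 9 other cohesin genes was among either 5.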

How the data were processed

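RNA from 20 E13.5 hearts was sequenced as mRNA libraries. Deposited by the authors was a single table that holds, for 48795 Ensembl genes, normalized counts on a log2 scale. Per the labels, the submitters' processing notes name Trimmomatic 0.36, STAR 2.5.2a, RSEM 1.2.31, DESeq2 and DESeq, without their roles, and GRCm38. The spread between hearts shrinks at low values, so differences of weak genes are probably understated. Whether those of stronger genes are understated too was not tested. The strand setting is not given in the sources used here. Litters are not labelled, so the 10 WT hearts, which pool littermate controls of both mutant strains, served both comparisons. Columns given to no sample numbered 0.

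A moderated linear model (limma 3.58.1, R 4.3.3, eBayes with its trend option) was fitted jointly to the 3 genotypes over the 15304 genes whose normalized count averaged 10 or more, and p-values were adjusted over these genes by Benjamini-Hochberg. The fit was tested on simulated data. Gene positions and canonical transcripts are those of GENCODE M39 on GRCm39, which matched 44565 IDs, and promoters those of RefSeq on GRCm38.p6. Python 3.11.15 was used for the rest.

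The members and gene lists were chosen with earlier results of these data known. Named are the 10 members, Dyrk1a, the other cohesin pathway genes, of each other list the genes called in any comparison and, where the list bears on a result, the 2 highest, the 3 genes on each side of Rec8, and the 5 genes most correlated with Rec8 before and after subtraction of genotype means. Genes named outside that rule include Tcf21 and the rest of the cushion and fibroblast list. Alternatives were other filters, centring, quantile normalization, heart weights, lane as a covariate, only the genotypes compared, each heart left out and, chosen after seeing the data, both hearts that stood apart left out and embryo sex, read from Xist against Ddx3y, as a covariate.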

Additional observations from a re-analysis of the deposited data

Results flagged for a closer look

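In each of the 30 combinations of the 10 members and 3 genotypes, the gap of the highest or lowest heart to its neighbour was set against the range of the group, and 6 exceeded Dixon's critical value, where chance gives about 1 in 20. Of these, 5 concern Dp1TybDyrk1a+/+/- heart 2, which was far above the other 4 hearts for Nipbl (12.04), Smc1a (12.04), Smc3 (11.83), Pds5b (11.64) and Stag1 (11.24). The gap took 0.927, 0.922, 0.787, 0.791 and 0.722 of the group's range. The remaining value was that of Smc1a in WT heart 6 (11.84), with a gap of 0.612 of the range. These are the 2 hearts that stood apart over all genes.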

How the results depend on the processing

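The labels give no replicate numbers shared between genotypes. No paired analysis was possible because the groups share no number, litter or donor in the labels. The mean differences of all 9 tested members stayed below 0 in both comparisons of Dp1Tyb hearts under every alternative run, and that of Rec8 from WT stayed between -0.26 and -0.21. Counts of calls moved more. In Dp1Tyb versus WT, genes called (471) became 779 with only these genotypes fitted, 1422 with heart weights, 1178 without both hearts that stood apart and 222 with embryo sex as a covariate, and 266 to 959 without single hearts. Cohesin genes called (1 of 9) became 2 by eBayes without trend, 5 with only these genotypes, 7 with heart weights, 7 without both hearts and 1 to 7 without single hearts. Other cohesin pathway genes (3 of 11) became 4 with heart weights, 4 without both hearts, 2 by quantile normalization, 1 with sex and 1 to 3 without single hearts. In Dp1TybDyrk1a+/+/- versus WT, genes called (109) became 341 with heart weights and 212 without both hearts, and 88 to 158 without single hearts, with 0 cohesin genes called throughout. In Dp1Tyb versus Dp1TybDyrk1a+/+/-, genes called (178, of which 65 higher) became 273 at a minimum mean count of 100, 76 with no filter, 29 with lane as a covariate, 3 with only these genotypes, 1247 with heart weights, 606 without both hearts and 10 with sex, and 30 to 404 without single hearts. Median centring gave 225 there, of which 48 higher. Cohesin genes called (2 of 9) became 1 with lane, 1 by quantile normalization, 0 with only these genotypes, 0 with sex, 5 with heart weights, 3 without both hearts and 1 to 3 without single hearts. Other cohesin pathway genes (2 of 11) became 1 with lane, 1 with no filter, 1 by quantile normalization, 0 with only these genotypes, 0 with sex and 1 to 3 without single hearts. They became 3 with heart weights, by median centring, by eBayes without trend, at a minimum mean count of 100 and without both hearts. Leaving out hearts lowers the number of samples, and the cause of the other shifts was not tested. Depth is unknown, so no counting error could be given.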
